A study of Bos taurus with 32 samples.

Results

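Transcripts of fatty acid synthesis, oxidation and storage were followed through preimplantation development in bovine embryos produced in vitro. The set was named gene by gene: 32 symbols, of which 31 were found in each of the 4 stage tables, out of 19834 genes listed in any table and 14225 listed in all of them. DGAT2, an enzyme of triglyceride assembly, was not analysed here. By role, 11 of the 31 genes belong to synthesis, 11 to oxidation, and 9 to activation, binding and storage.

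Fatty acids are built in the cytosol from acetyl-CoA, which is carboxylated to malonyl-CoA, condensed into palmitate and then lengthened and desaturated. They are burned in mitochondria and peroxisomes, after entry into mitochondria through a carnitine shuttle that malonyl-CoA inhibits. Surplus fatty acids are activated to acyl-CoA, carried by binding proteins and stored as triglyceride in lipid droplets, which bovine oocytes and embryos hold in large amounts.

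Embryos cultured with FGF2, LIF and IGF1 together (FLI), and control embryos, were collected at 4 stages: 4-6 cells, 9-16 cells, morula and blastocyst. Each library came from a pool of 15 whole embryos, and each of the 8 groups held 4 libraries. The labels name no breed, sex, culture medium, dose or collection day, and they leave unsaid if pools of a group were cultured apart, so p-values here speak only of spread among pools. Every stage is its own set of pools, and an effect of its collection cannot be told apart from one of the stage. In pools of whole embryos, fewer cells of a type and less RNA per cell cannot be told apart either.

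Of the 32 libraries 30 were used. Control morula replicate 4 held 83409 reads and control blastocyst replicate 6 held 2995, too few to read gene by gene. In units of 1e+06 reads, the others held 12.4 to 89.2 at the 4-6 cell stage, 7.01 to 50.6 at the 9-16 cell stage, 11.6 to 114 at the morula stage and 62.6 to 169 at the blastocyst stage. Oocyte genes and KRT8 followed the stage labels, read in the deposited signal, which was normalised separately at each stage. The summed signal of 10 oocyte genes was 8986 to 11400 per library at the 4-6 cell stage and 28.0 to 106 from the morula on. The signal of KRT8, a trophectoderm keratin, averaged 485 in control and 540 in FLI morulae, and 19520 in control and 34520 in FLI blastocysts. Other markers were less bound to a stage. GATA2, also listed for trophectoderm, already averaged 525 in control and 497 in FLI 4-6 cell embryos. The epiblast list summed to 443 to 1037 in control 4-6 cell libraries and 1274 to 1573 in control blastocysts. The hypoblast and genome activation lists are not described here. A list of 15 cumulus genes summed to a signal of 262 to 493 per library before the morula stage, led by STAR, and to 17.8 to 29.9 in morulae. In blastocysts the sum was 189 to 324 in control and 151 to 342 in FLI libraries, led by CYP11A1. The part of these genes in the results was not tested. Both replicates 6 of the 4-6 cell stage, control replicate 11 of the 9-16 cell stage and the morula libraries among themselves differed in the level of short against long genes, described with the cytokine comparison.

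**Figure D1:**
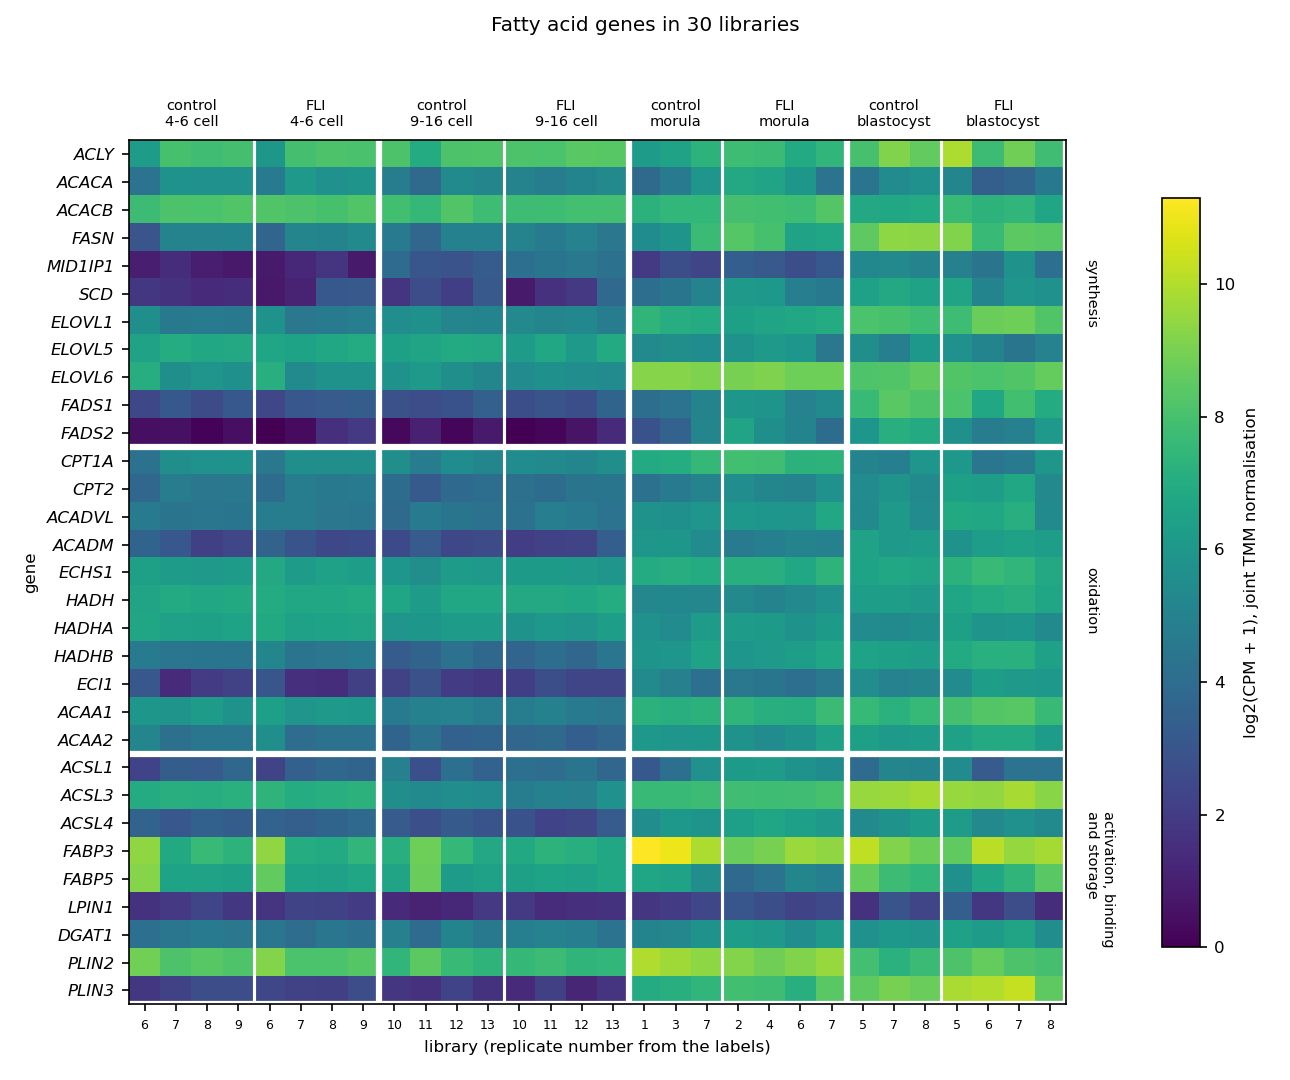
Level of 31 fatty acid genes, as log2(CPM + 1), in 30 libraries, with genes grouped by role and libraries by stage and treatment. Most genes of all 3 roles are brighter in morulae and blastocysts than at the earlier stages, while HADH, ELOVL5 and ACLY are dimmer in morulae than at the 9-16 cell stage.

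Levels between stages are given as CPM of reads scaled over all 30 libraries together. Per kilobase of transcript, which allows genes to be compared, FABP3, a cytosolic carrier of fatty acids, was the most abundant of the 31 genes in all 8 groups. Its mean level ran from 95.2 CPM per kilobase in FLI 9-16 cell embryos to 1381 in control morulae. PLIN2, a coat protein of lipid droplets, was next at the first 3 stages (79.5 to 350 CPM per kilobase over those 6 groups), and PLIN3, another droplet coat protein, took its place in blastocysts at 209 in control and 435 in FLI pools. LPIN1, a phosphatidate phosphatase, ranked lowest from the morula on, with mean levels of 0.910 to 1.49 CPM per kilobase. Every gene had reads in all 30 libraries except FADS2, which had none in 1. In control embryos 20 of the 31 genes had their highest mean level in blastocysts, 6 in morulae and 5 at the 4-6 cell stage, and in FLI embryos the numbers were 19, 8 and 4.

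Changes between neighbouring stages were tested with limma on log2(CPM + 1) in 1 fit of all 30 libraries, and a gene was called where its p, adjusted by Benjamini-Hochberg over the 13388 genes tested, was under 0.05. All 31 genes entered that fit. Neighbouring transitions share the libraries of the stage between them, so a rise into a stage and a fall out of it are not independent.

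From the 4-6 cell to the 9-16 cell stage few of the genes changed. In control embryos 1 rose and 4 fell, where 13.7% of all genes tested rose and 12.3% fell. In FLI embryos 1 rose and 7 fell, against 15.2% and 16.0% of all genes. The median log2 change of the 31 genes was -0.18 in control and -0.39 in FLI embryos, beside -0.14 and -0.11 over all genes.

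The gene that rose in both treatments, where 12.6% of all genes did, was MID1IP1 on chromosome X (build ARS-UCD1.2, 104474452 to 104476230, minus strand), which in mammals promotes polymerisation and activity of acetyl-CoA carboxylase. Control libraries held 0.932, 1.81, 0.945 and 0.689 CPM at the 4-6 cell stage and 14.2, 7.18, 6.33 and 8.84 at the 9-16 cell stage. FLI libraries held 0.743, 1.39, 2.22 and 0.775 CPM and then 16.5, 20.2, 21.7 and 18.3. All 8 later libraries lay above all 8 earlier ones, a log2 change of 2.25 ± 0.29 (SE; adjusted p = 8.91e-07) in control and 3.19 ± 0.29 (1.24e-09) in FLI embryos. No other synthesis gene was called at this transition in either treatment.

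The genes that fell in both treatments, where 10.4% of all genes did, were ACSL3, ACAA1, ACAA2 and HADHB. ACSL3 (chromosome 2, 111037664 to 111113602, plus strand) encodes an acyl-CoA synthetase found at lipid droplets. It held 123, 134, 130 and 142 CPM in 4-6 cell control libraries and 47.1, 41.8, 45.7 and 42.6 at the 9-16 cell stage. The FLI libraries held 160, 126, 134 and 152 CPM and then 27.0, 30.2, 29.1 and 52.3. The stages did not overlap in either treatment, and the log2 change was -1.56 ± 0.18 (adjusted p = 1.29e-07) and -2.06 ± 0.18 (5.29e-10). ACAA1, the peroxisomal thiolase, fell from 55.0 to 72.7 CPM over the control libraries to 23.7 to 31.6 (log2 -1.12 ± 0.19, adjusted p = 6.46e-05) and by 1.37 ± 0.19 on the log2 scale in FLI embryos (2.62e-06). ACAA2, the mitochondrial thiolase, changed by -0.78 and -0.87 on the log2 scale and HADHB, the beta subunit of the mitochondrial trifunctional protein, by -0.71 and -0.68. These smaller falls were not stable: ACAA2 lost its call without any of 6 of the 8 control libraries, and HADHB without control replicates 6, 7, 10 or 11. In FLI embryos ACSL4 (an acyl-CoA synthetase that prefers arachidonate), PLIN2 and HADHA (the alpha subunit of the trifunctional protein) also fell, by 0.93, 0.89 and 0.62 on the log2 scale. Without FLI replicate 6 of the 4-6 cell stage the FLI calls of PLIN2, HADHA, HADHB and ACAA2 ended.

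From the 9-16 cell stage to the morula the set rose broadly. In control embryos 21 of the 31 genes rose and 4 fell, where 39.0% of all genes tested rose and 34.6% fell. In FLI embryos 23 rose and 4 fell, against 40.6% and 32.6%. The median log2 change was 1.76 and 1.83, beside 0.13 and 0.23 over all genes. In both treatments the same 21 genes rose, where 35.3% of all genes rose in both, and ELOVL5, HADH and MID1IP1 fell, where 30.2% fell in both. By role the control counts were 6 rises and 3 falls of 11 for synthesis, 9 and 1 of 11 for oxidation, and 6 and 0 of 9 for activation, binding and storage. The FLI counts were 6 and 2, 9 and 1, and 8 and 1.

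Scaling by library size alone gave 15 rises and 7 falls in controls, with the median of all genes at -0.56 under that scaling. The shares of all genes called under it are not given here, so these counts have no background beside them. DGAT1 then went from 0.72 to -0.04 (adjusted p = 0.924), the calls of CPT2, ACADVL, ECHS1, FADS1 and FASN ended, and 15 of the 21 control rises held in all 16 alternatives without the shallow libraries. In FLI embryos the all-gene median moved to -0.12 and 21 of 23 rises held in all 17 such alternatives.

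Of the synthesis genes, ELOVL6, FADS2, SCD, FASN, ELOVL1 and FADS1 rose in both treatments, ELOVL1, an elongase of saturated very long chains, by 1.76 ± 0.30 in control and 1.56 ± 0.28 in FLI embryos on the log2 scale. ELOVL6 (chromosome 6, 15199666 to 15360477, plus strand), the elongase that turns palmitate into stearate, held 53.8, 68.3, 49.0 and 35.2 CPM in control 9-16 cell libraries and 612, 616 and 547 in control morulae. In FLI libraries it held 43.3, 49.5, 46.1 and 42.7 CPM and then 509, 559, 452 and 444. Every morula library was far above every earlier one, and the log2 change was 3.53 ± 0.32 (adjusted p = 1.82e-10) in control and 3.40 ± 0.29 (6.71e-11) in FLI embryos.

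FADS2 (chromosome 29, 40350389 to 40387558, plus strand) and FADS1 (40244038 to 40351218, minus strand) encode the delta-6 and delta-5 desaturases of polyunsaturated fatty acids and lie head to head, with gene spans that overlap by 830 bases and no shared exon bases in the files. FADS2 was near the limit of reading in 9-16 cell embryos, at 0.201, 1.07, 0.115 and 0.764 CPM in control and 0, 0.140, 0.507 and 1.56 in FLI libraries. In morulae it held 6.31, 10.8 and 34.2 CPM in control and 97.4, 49.0, 33.8 and 15.0 in FLI libraries. The stages did not overlap, but the morula libraries ranged widely within each treatment, and the log2 change was 3.28 ± 0.54 (adjusted p = 5.44e-06) and 4.81 ± 0.50 (2.31e-09). FADS1 rose from 5.29 to 10.2 CPM over the control libraries to 16.2, 18.6 and 32.5 (log2 1.54 ± 0.35, adjusted p = 0.000278), and from 5.52 to 11.4 CPM over the FLI libraries to 62.5, 57.4, 31.6 and 41.2 (2.57 ± 0.32, 5.85e-08).

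SCD, the desaturase that makes oleate, and FASN, which builds palmitate, rose as well. SCD went from 2.26 to 7.97 CPM over the control libraries to 16.2, 20.1 and 32.1 (log2 2.12 ± 0.58, adjusted p = 0.00208), and by 3.34 ± 0.54 in FLI embryos (3.98e-06). FASN held 24.5, 12.2, 30.3 and 30.1 CPM in control 9-16 cell libraries and 44.4, 56.2 and 208 in control morulae. Its control rise (log2 1.77 ± 0.56, adjusted p = 0.00641) ended without control morula replicate 7, the library at 208 CPM. In FLI morulae FASN held 317, 258, 89.8 and 98.0 CPM, and its log2 change was 2.58 ± 0.52 (8.09e-05).

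No rise was called at the cytosolic steps before FASN. ACLY, which cleaves citrate to acetyl-CoA, fell in control embryos by 1.19 ± 0.52 on the log2 scale (adjusted p = 0.0410). Its control libraries held 284, 125, 281 and 289 CPM and then 72.9, 89.5 and 158, and the stages overlapped at control replicate 11. The call ended without any of 5 of these 7 libraries. With the balance of short and long genes as a covariate, a measure given with the cytokine comparison, the control ACLY change turned to 0.86. In FLI embryos ACLY changed by -0.80, not called, from 269 to 340 CPM over the libraries to 118 to 220. That change was called with only the 2 groups fitted (-0.97, adjusted p = 0.00135). It was also called without replicates 6 of the 4-6 cell stage and control replicate 11 (-1.13, 0.00199). ACACA and ACACB, the cytosolic and the mitochondrial-surface acetyl-CoA carboxylases, had log2 changes of -0.00 and -0.45 in control and 0.87 and 0.11 in FLI embryos, none of them called. With the same covariate the ACACA changes were 2.12 and 2.19, both called. The FLI change of ACACA was also called by edgeR (1.14, adjusted p = 0.046) and by limma without FLI morula replicate 7 (1.085, 0.0440). ELOVL5, the elongase of polyunsaturated chains, fell by 1.19 ± 0.33 on the log2 scale in control (adjusted p = 0.00199) and by 0.94 ± 0.30 in FLI embryos (0.00717). MID1IP1 fell by 0.95 ± 0.32 (adjusted p = 0.00884) and 1.25 ± 0.29 (0.000426) after its earlier rise.

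Oxidation genes rose together at the morula, with HADH and HADHA apart. ACADM, the medium-chain acyl-CoA dehydrogenase, held 4.77, 8.46, 4.43 and 4.91 CPM in control 9-16 cell libraries and 61.5, 61.6 and 42.2 in control morulae. In FLI libraries it held 3.14, 3.50, 4.03 and 9.42 CPM and then 23.1, 28.6, 32.7 and 30.6. The stages did not overlap, and the log2 change was 3.10 ± 0.34 (adjusted p = 6.49e-09) and 2.40 ± 0.31 (1.26e-07). ECI1, an enoyl-CoA isomerase for unsaturated chains, rose by 2.62 ± 0.36 (3.94e-07) and 2.01 ± 0.34 (6.48e-06), and the thiolases ACAA1 and ACAA2 rose by 2.36 and 2.19 in control and 2.59 and 2.18 in FLI embryos on the log2 scale. CPT1A, the carnitine transferase that controls entry into mitochondria, held 26.7 to 47.4 CPM over the control 9-16 cell libraries and 118, 126 and 183 in control morulae (log2 1.86 ± 0.39, adjusted p = 0.000141). It held 35.7 to 47.5 CPM over the FLI libraries and then 238, 231, 153 and 158 (2.17 ± 0.36, 6.98e-06).

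HADHA (chromosome 11, 73256623 to 73298910, plus strand) and HADHB (73226234 to 73256305, minus strand) encode the alpha and beta subunits of 1 enzyme complex and lie head to head, 317 bases apart. Their transcripts were uneven before the morula. At the 9-16 cell stage HADHA averaged 23.3 CPM per kilobase and HADHB 3.70 in control embryos, and 22.1 and 4.37 in FLI embryos. In morulae they averaged 19.5 and 19.9 in control and 23.3 and 22.0 in FLI embryos. HADHB went from 8.68, 11.4, 18.1 and 13.1 CPM in control libraries to 56.8, 59.7 and 90.1, and from 11.7, 16.0, 12.4 and 20.4 CPM in FLI libraries to 59.4, 68.5, 78.5 and 98.8, with no overlap. Its log2 change was 2.35 ± 0.26 (adjusted p = 7.59e-09) and 2.26 ± 0.24 (3.09e-09). HADHA changed by -0.28 ± 0.22 (0.257) and 0.08 ± 0.20 (0.731) and was not called.

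HADH, the mitochondrial short-chain 3-hydroxyacyl-CoA dehydrogenase (chromosome 6, 17208776 to 17252208, minus strand), went the other way. It held 101, 74.8, 106 and 105 CPM in control 9-16 cell libraries and 36.9, 38.2 and 36.1 in control morulae. In FLI libraries it held 113, 113, 109.7 and 128 CPM and then 38.5, 32.6, 38.5 and 52.4. Every morula library lay below every earlier one, and the log2 change was -1.35 ± 0.18 (adjusted p = 3.01e-07) and -1.51 ± 0.17 (9.93e-09).

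The largest rise of the set was that of PLIN3, the droplet coat protein also known for its exchange with the cytosol (chromosome 7, 19291174 to 19311897, plus strand). It held 2.46, 2.02, 3.80 and 2.18 CPM in control 9-16 cell libraries and 123, 135 and 172 in control morulae. In FLI libraries it held 1.65, 3.43, 1.32 and 2.34 CPM and then 234, 221, 135 and 339. The mean CPM was 54.8 times higher in control and 106 times higher in FLI morulae, a log2 change of 5.33 ± 0.34 (adjusted p = 2.05e-13) and 6.17 ± 0.32 (1.59e-15).

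PLIN2 (chromosome 8, 25117062 to 25131177, plus strand), the droplet coat protein of most non-adipose cells, rose from a higher base. It held 175, 354, 196 and 163 CPM in control 9-16 cell libraries and 983, 816 and 662 in control morulae, and 186, 212, 168 and 179 CPM followed by 586, 466, 578 and 752 in FLI libraries. The stages did not overlap, and the log2 change was 1.94 ± 0.29 (adjusted p = 1.17e-06) and 1.66 ± 0.27 (3.63e-06). Among acyl-CoA synthetases, ACSL4 rose by 2.78 ± 0.26 (2.99e-10) and 3.68 ± 0.24 (1.96e-13), ACSL3 by 2.18 ± 0.20 (1.52e-10) and 2.77 ± 0.18 (2.25e-13), and ACSL1 had a called change of 1.83 ± 0.50 in FLI embryos (0.00191) and an uncalled one of 0.48 ± 0.54 in control (0.433), which became 2.46 and called with the short-gene covariate (1.26e-06). The difference between those ACSL1 changes was 1.36 ± 0.74 and was not called (adjusted p = 0.761).

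Of the binding proteins, FABP3 (chromosome 2, 122285620 to 122294666, plus strand) rose by 3.17 ± 0.58 in control (adjusted p = 2.61e-05) and 2.17 ± 0.54 in FLI embryos (0.000804). Its control libraries held 139, 452, 185 and 111 CPM at the 9-16 cell stage and 2523, 2060 and 972 at the morula. Its FLI libraries held 116, 156, 135 and 104 CPM and then 416, 499, 766 and 679. The stages did not overlap, and control libraries spread widely at both. FABP5, the epidermal-type binding protein (chromosome 14, 44488895 to 44494877, plus strand), fell by 1.99 ± 0.61 in FLI embryos (0.00525) and had an uncalled change of -0.75 ± 0.66 in control (0.313). That control change was called with the short-gene covariate, at -3.30 (3.13e-08), and with library size alone, at -1.53 (0.0192). DGAT1, which makes triglyceride from diacylglycerol, rose by 1.25 ± 0.25 in FLI embryos (8.92e-05), and LPIN1 rose by 1.01 ± 0.31 there (0.00551).

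**Figure D2:**
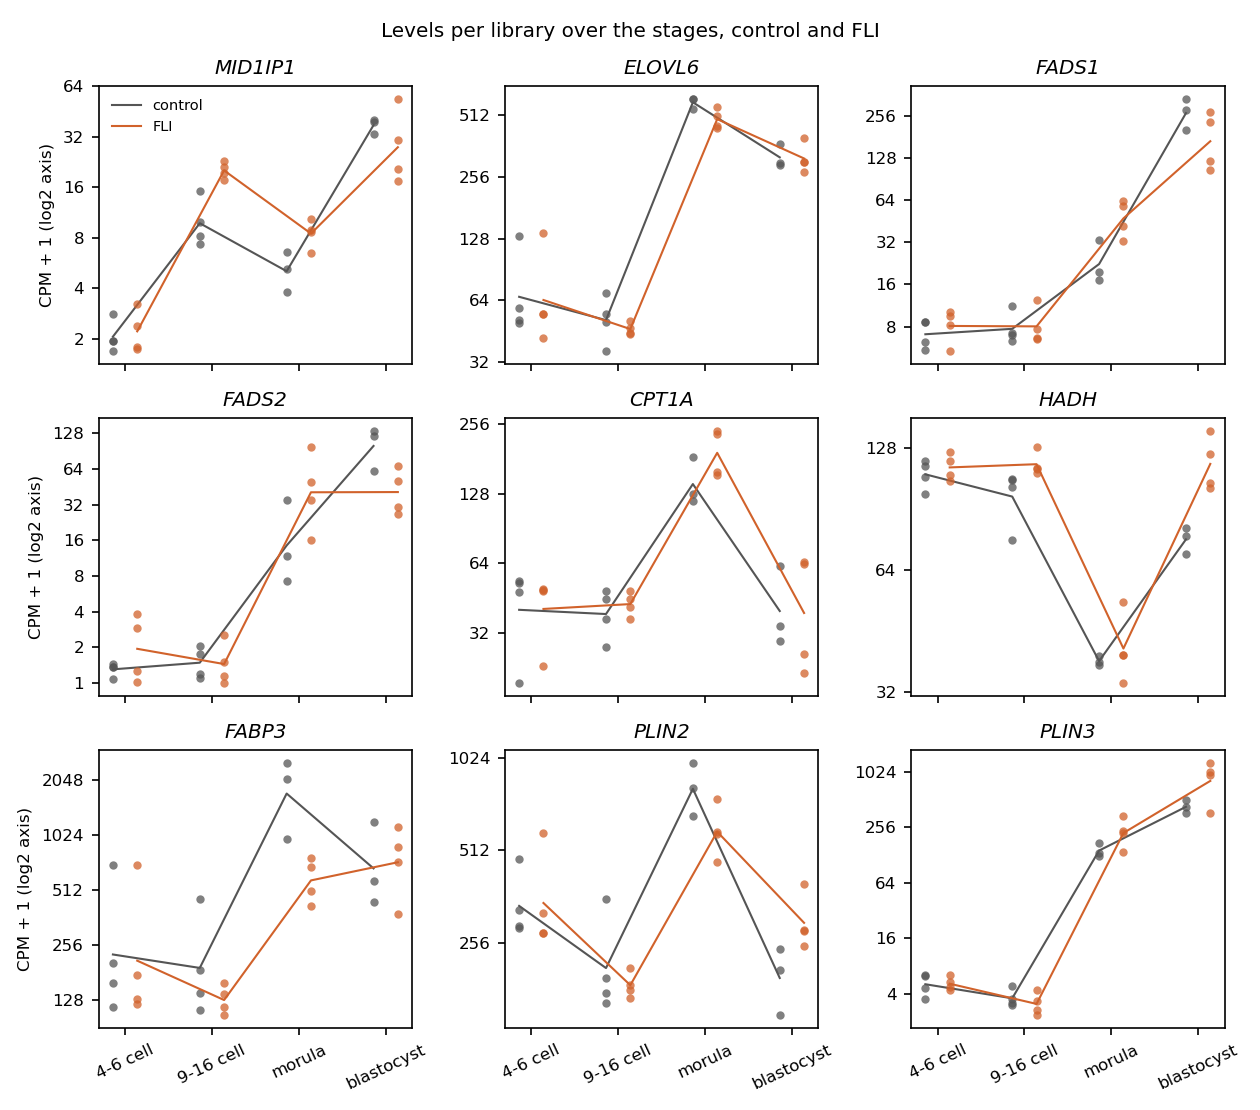
Level of 9 fatty acid genes over the 4 stages, as CPM + 1 on a log2 axis; points are libraries, lines join group means on the log2 scale, control in grey and FLI in orange. MID1IP1 rises, falls and rises again, CPT1A and PLIN2 peak at the morula, HADH dips there, and PLIN3, FADS1 and FADS2 climb to the blastocyst in controls.

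From the morula to the blastocyst the set divided. In control embryos 11 genes rose and 4 fell, where 17.6% of all genes tested rose and 15.2% fell. In FLI embryos 13 rose and 6 fell, against 18.8% and 22.0%. The median log2 change was 0.42 in control and 0.44 in FLI embryos, beside -0.02 and -0.08 over all genes. In both treatments ACSL3, CPT2, ELOVL1, FADS1, HADH, MID1IP1 and PLIN3 rose, where 11.9% of all genes rose in both. ACACB, CPT1A and PLIN2 fell in both, where 7.93% of all genes did. The ACACB call ended in 7 of 15 alternatives in control, among them without blastocyst replicate 7 or 8 or morula replicate 3 or 7, and in 3 of 18 in FLI embryos, among them without blastocyst replicate 8. The FLI call of PLIN2 ended with the replicate block (-0.94, adjusted p = 0.0783). By role, 7 of 11 synthesis genes rose in control and 3 of 11 in FLI embryos, while 2 of 11 oxidation genes rose in control and 7 of 11 in FLI embryos. The difference between these counts was not tested.

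With library size alone as the scaling, the splits were 12 rises and 2 falls in control and 9 rises and 7 falls in FLI embryos, with all-gene medians of 0.19 and -0.29. The all-gene shares called under that scaling are again not given. Of the 11 control rises 7 held in all 15 alternatives without the shallow libraries, as did 9 of the 13 FLI rises in 18 such alternatives.

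In control embryos the largest rise was that of FADS1, and in FLI embryos FABP5 and PLIN3 rose more. FADS1 held 202, 341 and 280.5 CPM in control blastocysts and 272, 104, 233 and 122 in FLI blastocysts, every value above every morula library. Its log2 change was 3.59 ± 0.37 (adjusted p = 1.96e-08) in control and 1.83 ± 0.32 (4.85e-05) in FLI embryos. MID1IP1 held 38.0, 39.2 and 32.3 CPM in control and 29.7, 19.4, 52.8 and 16.3 in FLI blastocysts, again above all morula libraries, with log2 changes of 2.89 ± 0.34 (1.55e-07) and 1.71 ± 0.29 (3.77e-05).

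FADS2 and FASN rose in control embryos and were not called in FLI embryos. FADS2 held 60.0, 133 and 121 CPM in control blastocysts, above the control morulae (log2 2.79 ± 0.58, adjusted p = 0.000463), and 49.8, 25.8, 29.4 and 66.1 in FLI blastocysts, which overlapped the FLI morulae (0.01 ± 0.50, 0.994). FASN held 365, 656 and 637 CPM in control blastocysts (log2 2.71 ± 0.60, adjusted p = 0.000895) and 569, 199, 348 and 332 in FLI blastocysts (1.04 ± 0.52, 0.113). SCD changed by 2.08 ± 0.62 in control (0.0113) and 0.44 ± 0.54 in FLI embryos (0.544), its control call ending without control morula replicate 1. ACLY rose by 1.91 ± 0.55 in control (0.00902), a call that ended without control blastocyst replicate 7, and had a change of 1.14 ± 0.48 in FLI embryos (0.0582). ELOVL1 rose by 0.85 ± 0.32 in control (0.0428) and 1.71 ± 0.28 in FLI embryos (1.75e-05), its control call ending without any 1 of the 6 control libraries of these stages. ELOVL6 fell by 0.89 ± 0.34 in control (0.0450), also lost without any 1 of those 6, and had a change of -0.64 ± 0.29 in FLI embryos (0.0857). ACACA fell by 1.72 ± 0.51 in FLI embryos (0.00876), a call that ended without FLI blastocyst replicate 6.

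At the carnitine shuttle the genes parted. CPT1A (chromosome 29, 46164784 to 46225440, minus strand) returned to its early level, at 33.4, 28.6 and 61.0 CPM in control and 64.1, 20.5, 24.96 and 62.7 in FLI blastocysts, with no overlap with morulae. Its log2 change was -1.82 ± 0.42 (adjusted p = 0.00137) in control and -2.30 ± 0.36 (1.38e-05) in FLI embryos. CPT2, which completes the shuttle at the inner membrane, rose by 0.91 ± 0.33 (0.0348) and 0.85 ± 0.29 (0.0192), calls that ended without any of 5 control and any of 3 FLI libraries. HADH recovered to 79.9, 76.7 and 68.8 CPM in control and 104, 122, 139.8 and 101 in FLI blastocysts, above every morula library, with log2 changes of 0.997 ± 0.20 (0.000264) and 1.51 ± 0.17 (6.73e-08). In FLI embryos ECI1 rose by 1.56 ± 0.34 (0.000552), ACADM by 1.34 ± 0.31 (0.00119), and ACAA1, ACAA2 and HADHB by 0.74, 0.77 and 0.68, all on the log2 scale. The call of ACAA2 ended in 9 of 18 alternatives and that of HADHB in 5, each of them without FLI blastocyst replicate 7 or FLI morula replicate 2 or 4 among others, and that of ACAA1 with library size alone. In control embryos the changes of these 5 genes ran from 0.25 to 0.49 and none was called.

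The 2 droplet coat proteins moved apart. PLIN3 held 361, 508 and 421 CPM in control and 934, 1012, 1276 and 365 in FLI blastocysts, every value above all morula libraries, with log2 changes of 1.58 ± 0.36 (adjusted p = 0.00134) and 1.88 ± 0.32 (2.95e-05). PLIN2 dropped to 243, 148 and 208 CPM in control and 279.6, 396, 279.7 and 249 in FLI blastocysts, below all morula libraries, with log2 changes of -2.04 ± 0.31 (8.38e-06) and -0.98 ± 0.27 (0.00429). ACSL3 rose to 752, 784 and 871 CPM in control and 756, 712, 914 and 622 in FLI blastocysts (log2 1.963 ± 0.21 and 1.67 ± 0.18, adjusted p = 3.30e-08 and 3.57e-08). FABP5 rose by 2.50 ± 0.61 in FLI embryos (0.00190) and had a change of 1.71 ± 0.71 in control (0.0657). ACSL1 fell by 1.57 ± 0.50 in FLI embryos (0.0135), a call that ended without FLI blastocyst replicate 6, and ACSL4 fell by 0.70 ± 0.24 there (0.0203), a call that ended in 6 of 18 alternatives, among them without FLI blastocyst replicate 6 or 8, without FLI morula replicate 4 and with the replicate block.

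**Figure D3:**
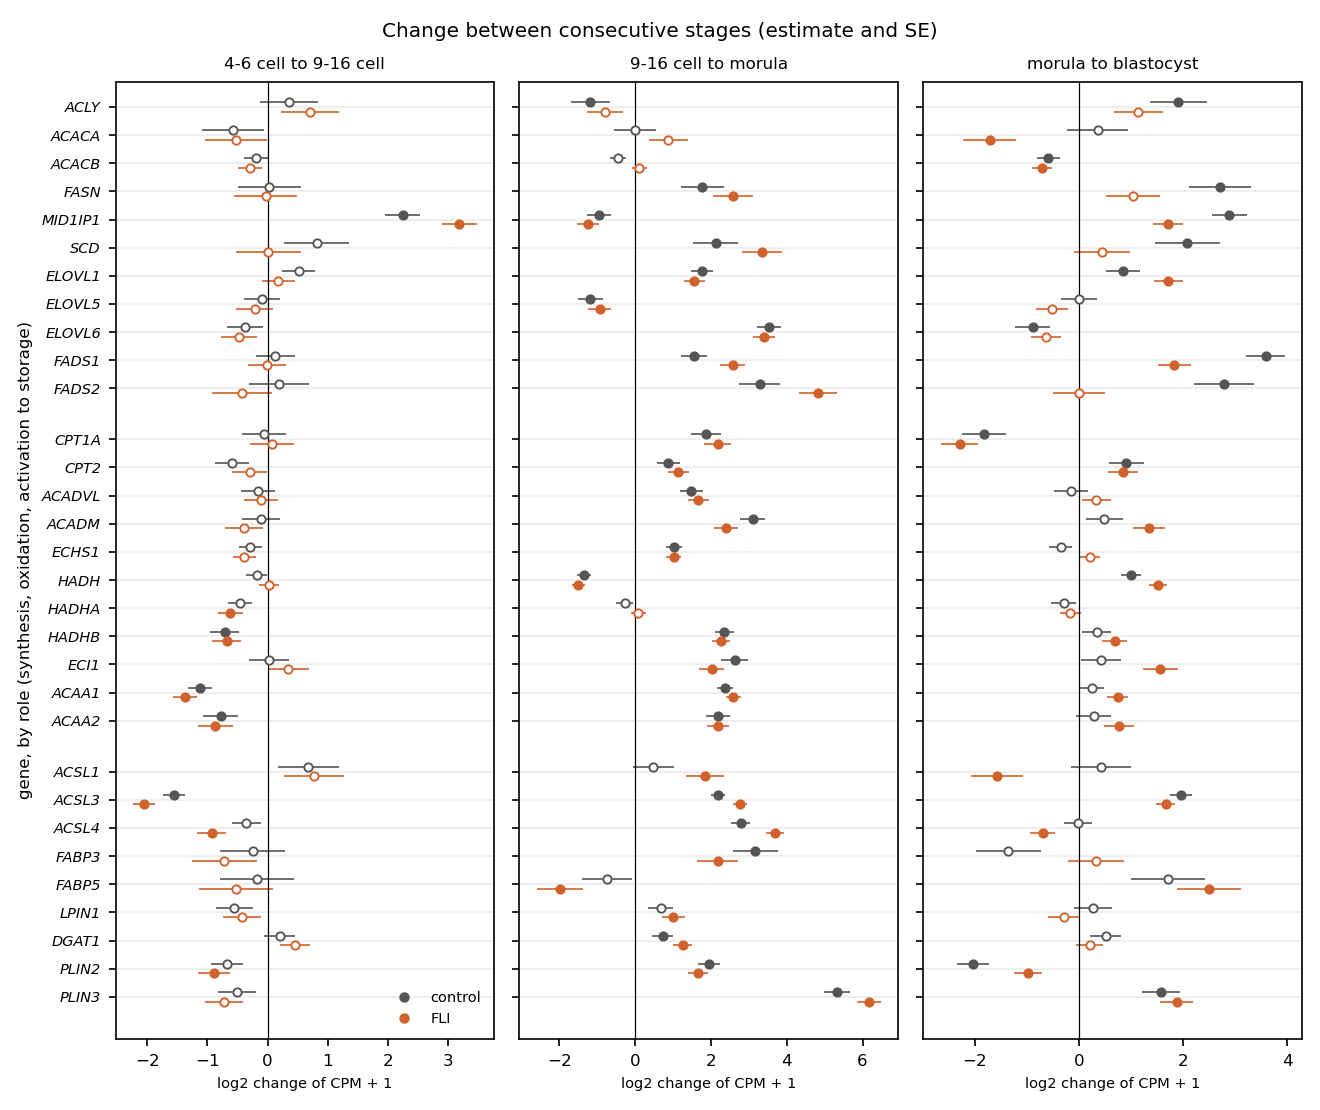
Log2 change ± SE of each of the 31 genes over the 3 stage transitions, control in grey and FLI in orange, by role; filled points are called at an adjusted p under 0.05 and open points are not. In the middle panel most points of all 3 roles lie to the right of 0, led by PLIN3, and in the last panel CPT1A and PLIN2 lie to the left while FADS1 and MID1IP1 lie to the right.

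HADHA was called in 1 contrast alone, the FLI transition from 4-6 to 9-16 cells, and its levels stayed between 41.4 and 116 CPM in all 30 libraries. LPIN1 was likewise called in 1 contrast and held 1.09 to 9.54 CPM. ACACB held 100.1 to 305 CPM in all 30 libraries. Reads of 3 genes could in part come from a gene on the opposite strand, since the strand setting is not given: ACAA1 shares 315 of its 3021 exon bases with DLEC1, ACAA2 shares 66 of 2285 with an unnamed gene, and ACACA shares 76 of 8586 with TADA2A. FABP5 has processed copies in the human genome, and whether cattle have them was not examined here; how reads that map to several places were counted is not given either.

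Genes around the 31 were read from 7 further lists in control embryos. From the 4-6 cell to the 9-16 cell stage, 1 of 21 regulators rose and 4 fell, where 13.7% and 12.3% of all genes did. The counts were 1 and 4 of 21 other synthesis, 0 and 4 of 20 other mitochondrial oxidation and 1 and 5 of 14 peroxisomal genes. At that transition 1 of 14 uptake, activation and binding genes rose and 3 fell, beside 1 and 3 of 20 triglyceride and droplet genes and 0 and 2 of 7 lipolysis genes. Among 21 regulators tested, 8 rose and 11 fell from the 9-16 cell stage to the morula, where 39.0% and 34.6% of all genes did. PPARGC1A, a coactivator of oxidation genes, fell from a mean of 63.4 to 0.539 CPM (log2 -5.38 ± 0.26, adjusted p = 9.71e-16), and PPARG, a nuclear receptor of fat storage, from 25.2 to 0.402 CPM (-4.22 ± 0.28, 3.91e-13). MBTPS1 and MBTPS2, the proteases that release the SREBP factors, rose by 2.98 and 2.88, and MLXIPL, a glucose-responsive factor that drives lipogenic genes, by 2.27 on the log2 scale. From the morula to the blastocyst 6 of 21 regulators rose and 1 fell, where 17.6% and 15.2% of all genes did. The largest rise was that of INSIG1, which retains SREBP in the endoplasmic reticulum (6.45 to 64.8 CPM, 3.06 ± 0.43, 3.36e-06).

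Of the 20 other genes of mitochondrial oxidation tested, 12 rose and 4 fell into the morula, led by ACAT1, the acetoacetyl-CoA thiolase (7.004 to 212 CPM, log2 4.81 ± 0.41, adjusted p = 6.74e-11) and HSD17B10, a mitochondrial hydroxyacyl-CoA dehydrogenase (30.4 to 600 CPM, 4.34 ± 0.49, 1.33e-08). Of 14 peroxisomal genes 9 rose and 2 fell, with SCP2, a lipid carrier and thiolase, up by 4.83 ± 0.50 (2.15e-09), and CROT, the carnitine octanoyltransferase, down from 184 to 7.61 CPM (-4.43 ± 0.33, 3.45e-12). Of 21 other synthesis genes 7 rose and 9 fell. ELOVL4, an elongase of very long chains, fell from 149 to 3.46 CPM (-5.08 ± 0.24, 5.98e-16), and ME1, an NADPH source for synthesis, from 14.7 to 0.243 CPM (-3.64 ± 0.28, 6.54e-12). FADS3, a relative of FADS1 and FADS2, rose by 2.60 into the morula and by 4.24 into the blastocyst on the log2 scale, reaching 705 CPM.

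Among 14 genes of uptake, activation and binding, 8 rose and 6 fell into the morula. DBI, the acyl-CoA binding protein, went from a mean of 50.5 (SD 74.5) to 2569 CPM (SD 1406), a log2 change of 6.45 ± 0.87 (adjusted p = 2.81e-07). The libraries of each stage thus spread widely, and the FLI change was 4.96 (4.69e-06). Of 20 genes of triglyceride assembly and droplets 10 rose and 10 fell. Within the acyltransferases, AGPAT4 went from 0.0880 to 91.0 CPM and AGPAT5 from 41.9 to 572, while AGPAT1 fell from 78.3 to 2.22. CIDEA, which fuses droplets, fell by 3.54 ± 0.33 (3.53e-10) and then rose by 2.58 ± 0.35 into the blastocyst (2.11e-06). Of 7 lipolysis genes 1 rose and 3 fell, among them LIPE, the hormone-sensitive lipase, from 19.2 to 1.35 CPM (-3.11 ± 0.42, 2.55e-07). From the morula to the blastocyst 7 of 21 other synthesis genes rose and 3 fell, where 17.6% and 15.2% of all genes did. The counts were 7 and 2 of 20 mitochondrial, 4 and 0 of 14 peroxisomal and 3 and 1 of 14 uptake genes. They were 7 and 2 of 20 triglyceride and 3 and 1 of 7 lipolysis genes.

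The design then asked whether the cytokines changed these transcripts at each stage. FLI and control pools were compared within a stage on the deposited values, which are a normalised signal per library, with limma on log2(signal + 1). At every stage 0 of the fatty acid genes and 0% of all genes tested were called in either direction. At an unadjusted p under 0.05 there were 0 of 30 fatty acid genes at the 4-6 cell stage, 1 of 30 at the 9-16 cell stage, 7 of 31 in morulae and 6 of 31 in blastocysts, beside 12 of 13385, 293 of 14139, 4203 of 13254 and 2049 of 13029 genes tested. FADS2 was below the filter on low values at the first 2 stages. The count test of edgeR on recovered reads gave 14, 581, 4088 and 2017 genes at that unadjusted level, and DESeq2 gave 38, 663, 4673 and 2385.

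At the 4-6 cell stage 21 of 30 genes had a positive FLI minus control difference, with a median of 0.08 on the log2 scale beside -0.01 over all genes. The genes with the smallest p were ACSL4 (0.22 ± 0.19), ECHS1, the enoyl-CoA hydratase (0.20 ± 0.18), HADHB (0.18 ± 0.20), DGAT1 (-0.16 ± 0.21) and SCD (0.45 ± 0.60), each at an adjusted p = 1 (between 0.810 and 1 over the alternatives for the first). At the 9-16 cell stage 15 of 30 were positive, with a median of -0.00 beside 0.01. MID1IP1 was the 1 gene of the 30 at an unadjusted limma p under 0.05, where 293 of 14139 genes tested were. Its signal was 19.7, 24.1, 24.7 and 22.1 in FLI libraries and 17.3, 8.88, 7.27 and 11.1 in control libraries. The groups did not overlap, control replicate 10 lying closest, and the share of all genes without overlap was not computed. The difference was 1.02 ± 0.27 (adjusted p = 0.910, between 0.628 and 0.9999 over the alternatives) and was not called. ACSL3 (-0.43 ± 0.25), FABP3 (-0.62 ± 0.38), CPT2 (0.40 ± 0.25) and ACSL4 (-0.37 ± 0.28) followed, and their groups overlapped.

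In morulae 22 of 31 genes were positive, where 7197 of 13254 genes tested were, with a median of 0.28 beside 0.08 over all genes. The groups did not overlap for 6 of the 31. The share of all genes without overlap was not computed, so this count cannot be set against a background. FABP5 signal was 10.6, 15.2, 31.8 and 26.2 in FLI libraries and 91.6, 82.7 and 42.3 in control libraries, a difference of -1.78 ± 0.41 (adjusted p = 0.0630). FABP3 signal was 327, 402, 683 and 624 in FLI and 2280, 1883 and 879 in control libraries (-1.68 ± 0.42, 0.0630). ACADM signal was 18.2, 23.1, 29.2 and 28.1 in FLI and 55.5, 56.2 and 38.2 in control libraries (-0.99 ± 0.27, 0.0663). For these 3 genes every FLI library lay below every control library, and control replicate 7 lay closest to the FLI pools. Over 19 alternatives the adjusted p ran from 0.00102 to 0.973 for FABP5, from 0.000644 to 0.973 for FABP3 and from 0.00703 to 0.973 for ACADM.

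FADS1 signal was 49.1, 46.3, 28.2 and 37.9 in FLI and 14.6, 16.98 and 29.4 in control morulae (0.99 ± 0.31, adjusted p = 0.0836). ACSL1 signal was 55.0, 57.9, 47.6 and 40.4 in FLI and 6.88, 15.2 and 46.1 in control morulae (1.48 ± 0.51, 0.0950). Over the alternatives the adjusted p ran from 0.0117 and 0.00418 to 0.973. In both genes control replicate 7 lay within the FLI range and the other controls below it. Without control replicate 7, limma called 9 of the 31 genes. ACSL1 (2.17), FADS2 (2.02), FASN (1.595), FADS1 (1.27) and ACLY (0.99) were then higher in FLI pools, where 13.9% of all genes were, and FABP5 (-2.12), FABP3 (-2.09), ACADM (-1.17) and ECI1 (-0.84) were lower, where 20.9% were. With all 7 libraries, edgeR called FABP3 and FABP5 lower (adjusted p = 0.0467 and 0.0464; 6.48% of all genes lower and 0.241% higher), and DESeq2 called FABP3, FABP5 and ACADM lower and FADS1 higher (0.000644, 0.00102, 0.00703 and 0.0371; 15.5% and 3.71%). With library size alone as the scaling, the all-gene median was 0.49 and no gene was called.

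The morula libraries also differed in the balance of short and long genes. This was measured as the mean log2(signal + 1) of the shortest 25% of genes minus that of the longest 25%. It was 1.10, 0.882 and -0.0835 in control replicates 1, 3 and 7, and -0.738, -0.690, -0.0804 and 0.247 in FLI replicates 2, 4, 6 and 7. The group means, 0.633 and -0.315, differed with an exact permutation p = 0.143 (two-sided, 35 arrangements, smallest possible 0.0286; adjusted p = 0.571 over 12 such comparisons). Mitochondrially encoded genes took a mean of 5.40% of reads in control and 2.94% in FLI morulae (exact permutation p = 0.0286, the smallest possible; adjusted p = 0.343). With the short-gene measure as a covariate the morula differences were -0.75 for FABP5, -0.67 for FABP3, -0.51 for ACADM, 0.35 for FADS1 and 0.26 for ACSL1, and none was called. The part of this measure in the differences was not tested beyond that fit.

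**Figure D4:**
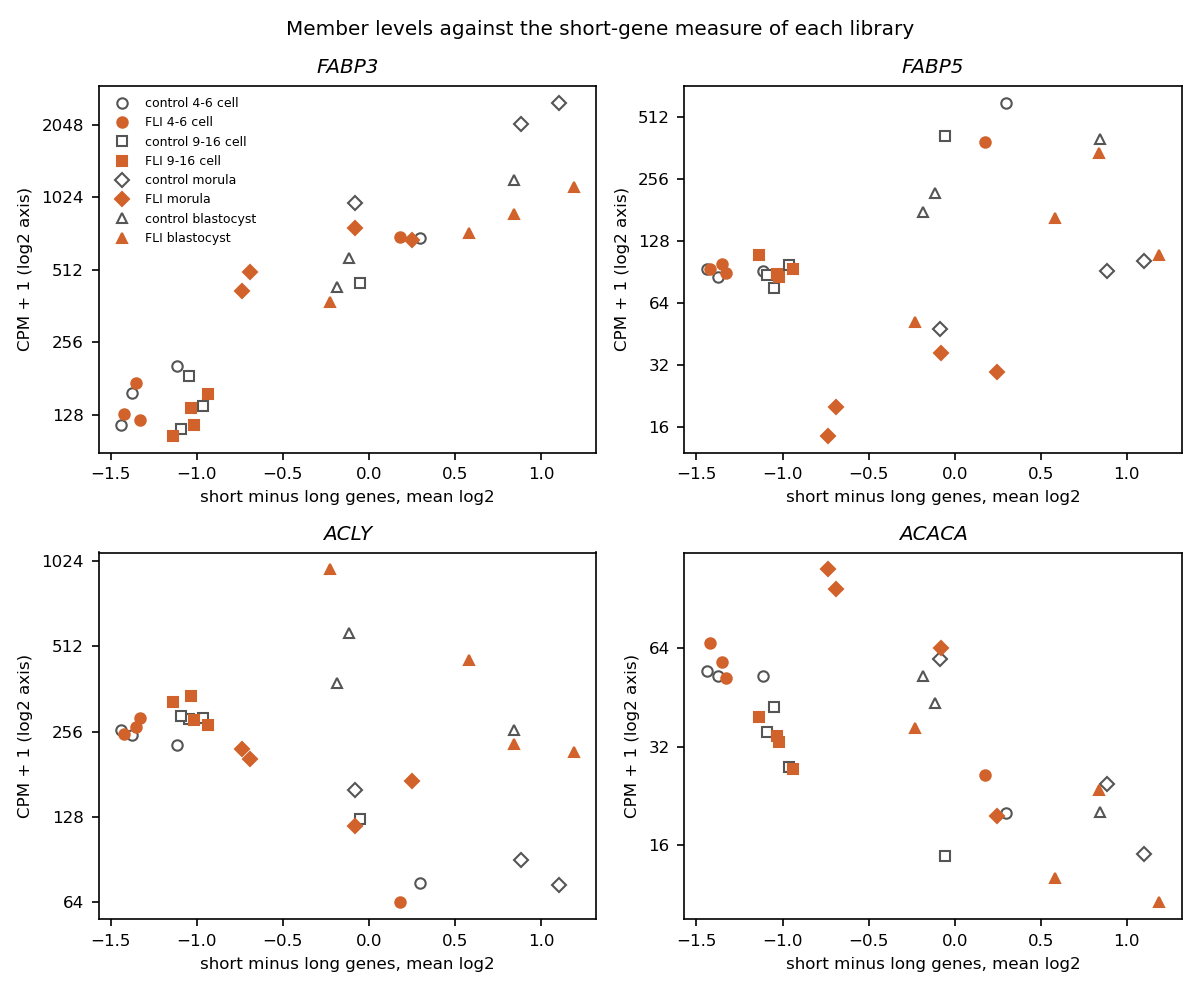
CPM + 1 (log2 axis) of FABP3, FABP5, ACLY and ACACA in 30 libraries against each library's short minus long gene measure (mean log2 difference); open grey markers are control and filled orange markers FLI, with 1 marker shape per stage. FABP3 is high and ACACA low in libraries at the right end, and both replicates 6 of the 4-6 cell stage and control replicate 11 of the 9-16 cell stage lie to the right of the other libraries of their stages.

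In blastocysts 17 of 31 genes were positive, where 6983 of 13029 genes tested were, with a median of 0.03 beside 0.04 over all genes. The groups did not overlap for 4 of the 31. The share of all genes without overlap was not computed, so here too the count has no background beside it. By role, 9 of 11 oxidation genes were positive with a median of 0.62, and 3 of 11 synthesis genes with a median of -0.43. The difference between the roles was not tested. HADH signal was 103, 120, 132 and 101 in FLI and 79.1, 75.4 and 65.9 in control libraries (0.62 ± 0.25, adjusted p = 0.278). ECHS1 signal was 153, 194, 164 and 113 in FLI and 92.9, 103 and 90.5 in control libraries (0.68 ± 0.27, 0.280). Every FLI library lay above every control library for these 2 genes. ECI1 signal was 42.9, 76.2, 62.0 and 64.0 in FLI and 44.5, 30.6 and 32.8 in control libraries (0.74 ± 0.28, 0.266), with FLI replicate 5 below control replicate 5. FADS2 signal was 49.5, 25.4, 27.8 and 66.1 in FLI and 59.3, 131 and 116 in control libraries (-1.28 ± 0.40, 0.209), with FLI replicate 8 above control replicate 5.

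PLIN3 signal was 928, 996, 1207 and 365 in FLI and 357, 499.8 and 403 in control blastocysts (0.94 ± 0.41, adjusted p = 0.305). In 3 FLI libraries it was above all controls, and FLI replicate 8 lay among them. Without FLI replicate 8 the differences of PLIN3 and of ACADVL, the very long chain acyl-CoA dehydrogenase, were called, at 1.32 (adjusted p = 0.0473, the lowest over the alternatives, the highest being 0.911) and 1.24 (0.0493), where 1.18% of all genes were called higher and 1.79% lower. FLI replicate 8 had 5.58% of its reads in mitochondrially encoded genes, and the other FLI blastocysts had 0.646% to 1.15%, beside 1.33% to 7.65% in control blastocysts; the part of that difference was not tested.

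**Figure D5:**
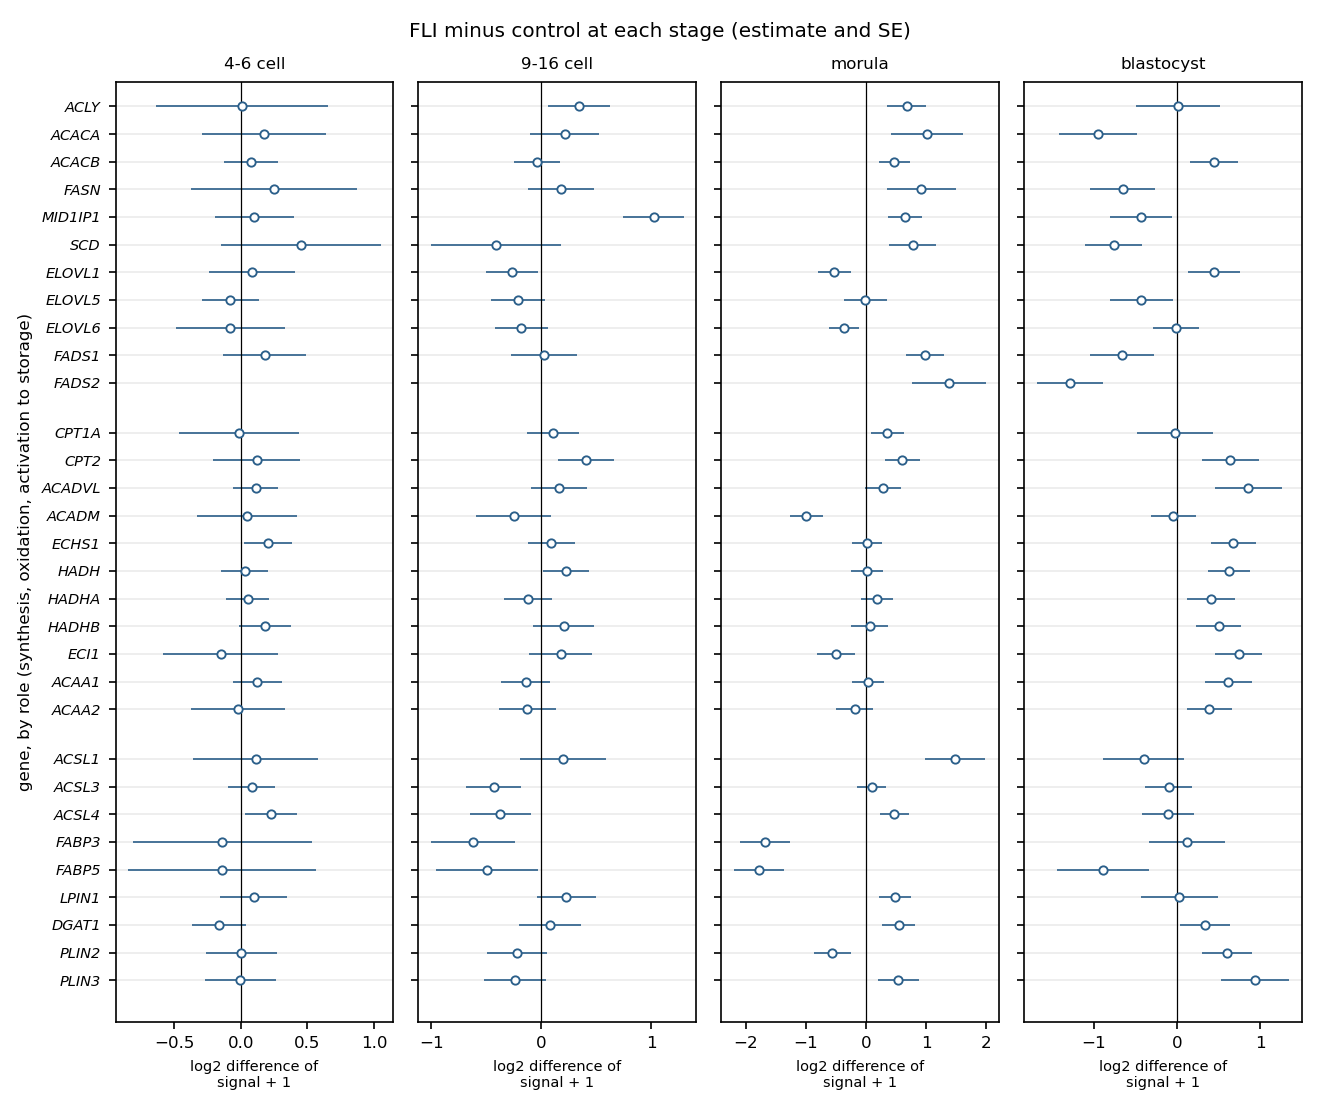
FLI minus control difference ± SE in log2(signal + 1) for each fatty acid gene at the 4 stages, by role; open points are not called at an adjusted p under 0.05. No point is filled, FABP5, FABP3 and ACADM lie farthest to the left in morulae, and FADS2 is absent from the first 2 panels because it was below the filter on low values.

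Whether the cytokine difference itself differed between neighbouring stages was tested as an interaction in the fit of all 30 libraries. None of the 31 genes and 0% of all genes were called for any transition, and at an unadjusted p under 0.05 there were 1, 4 and 9 of the 31 and 86, 881 and 2922 of all genes. Those with the smallest p were from the morula to the blastocyst, where the change in FLI minus that in control embryos was -2.78 ± 0.76 for FADS2, -1.75 ± 0.49 for FADS1 (adjusted p = 0.132 for each) and -2.08 ± 0.78 for ACACA (0.177). When replicates 6 of the 4-6 cell stage and control replicate 11 of the 9-16 cell stage were left out of the fit, 9 genes were called for that transition. FADS2 (-2.64), ACACA (-1.92), ACSL1 (-1.84) and FADS1 (-1.61) were then lower, where 7.07% of all genes were, and FABP3 (1.84), ECI1 (1.29), PLIN2 (1.21), ELOVL1 (1.02) and ECHS1 (0.71) higher, where 11% were. Their adjusted p lay between 0.0338 and 0.0487. That alternative changed no morula or blastocyst library, and over the 5 alternatives the adjusted p ran from 0.0345 to 0.549 for FADS2 and from 0.0344 to 0.863 for FADS1.

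The authors' deposited table gives log2 fold changes as control minus FLI. At a false discovery rate under 0.05 the authors' deposited table lists 5 of the 31 genes in morulae: ACSL1 (-1.94), FADS2 (-1.86), FASN (-1.57) and FADS1 (-1.17) higher in FLI, and FABP5 (1.80) lower. For blastocysts the authors' deposited table lists FADS2 alone (1.25), higher in control. At the first 2 stages it lists none of them. The share of all genes that the authors' tables list at that rate was not computed here. Whether the shallow libraries entered the authors' fits was not examined either, so these counts are not directly comparable with those above.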

How the data were processed

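RNA of pooled bovine embryos was sequenced in 32 libraries. The submitters' processing notes name FastQC, HISAT2, featureCounts, edgeR and build ARS-UCD1.2; versions and the settings for strand and multi-mapped reads were not given in the sources used. As deposited, each stage has 1 table of normalised signal, with a value for every gene in every library, and whole reads were recovered for 100% of values (tolerance 0.001). The authors' deposited tables also hold log2 fold changes of control minus FLI, and the p-values and FDR the authors deposited with them.

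FLI and control were compared within a stage with limma 3.58.1 (R 4.3.3) on log2(signal + 1), for genes with a mean of at least 1. Because stage tables were normalised separately, stages were compared on the reads recovered for the 14225 genes that all 4 tables share, scaled together by TMM (edgeR 4.0.16), in 1 limma fit on log2(CPM + 1). Fold changes on these scales understate changes of low genes. Adjusted p-values are Benjamini-Hochberg over all genes tested, with calls under 0.05. DESeq2 1.42.0 and edgeR count tests were alternatives. Fits were tested on simulated data. Libraries under 1e+06 reads were left out. No library was a repeat of another of its group by a chi-square of counts.

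The genes, lists and tests were chosen with earlier results of these data known. Named genes were up to 5 largest called rises and 5 falls per transition and treatment, and for FLI against control the called genes or else the 5 with the smallest p; others were named after their values were seen. From each further list up to 3 rises and 3 falls qualified. Samples of the same number at the 4-6 cell stage correlated (r from 0.473 to 0.924 over 4 pairs), each gene being centred on its group mean. Those of unlike number among replicates 7 to 9 correlated too (0.463 to 0.734). A group mean that includes the distant replicate 6 shifts replicates 7 to 9 alike, so r among them does not show a shared deviation. The fit with the number as a block changed no call there.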

Additional observations from a re-analysis of the deposited data

Results flagged for a closer look

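In 24 cases 1 library lay far from the other 3 of its group (Dixon's ratio above 0.829), among 186 groups of 4 tested. Chance alone gives about 1 in 20. The values are CPM, and the causes were not tested.

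Of these, 15 belong to replicate 6 of the 4-6 cell stage. FABP3 was high at 695.8 in the control and 696.3 in the FLI library, FABP5 at 601.1 and 387.7, and ELOVL6 at 130.3 and 134.8. ACLY was low at 73.79 and 63, and CPT1A at 18.42 and 21.97. In the control library alone, ELOVL1 was high at 48.51, and ACACA at 19.01 and FASN at 6.876 were low. In the FLI library alone, PLIN2 was high at 580.8 and ACAA2 at 49.12. Both libraries also had the highest short against long gene measure of their stage, 0.297 and 0.178, where the other 6 lay between -1.44 and -1.11.

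Control replicate 11 of the 9-16 cell stage was high in FABP5 (414.6), ACAA2 (18.32) and ACADM (8.463) and low in HADH (74.81) and ACLY (124.7). Its short against long gene measure was -0.0540, and the other 7 libraries lay between -1.14 and -0.938. FLI replicate 13 of that stage was high in ACSL3 (52.3), ACADM (9.417) and SCD (13.52). FLI morula replicate 7 was high in ACADVL (109.6).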

How the results depend on the processing

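With the shallow libraries included, calls among the 31 genes over the 3 transitions went from 5 to 0, 25 to 9 and 15 to 3 in control and from 8 to 1, 27 to 7 and 19 to 1 in FLI embryos. Among the values of the genes named by rule between stages, 85 lost their call under an alternative, 33 of them in this one, 1 turned and 761 kept their side of the threshold. For the first transition, fitting only the 2 groups compared gave 3 calls in control and 4 in FLI embryos, leaving out replicates 6 and control replicate 11 gave 8 in control, and the short-gene covariate gave 10. Leaving out 1 library at a time gave 3 to 5 control and 4 to 9 FLI calls there, 22 to 25 and 27 to 28 for the second transition, and 10 to 13 and 15 to 20 for the third. The shares of all genes called in these alternative transition fits are not given here. The counts thus show how calls depend on the setting and are not a trait of the 31 genes. Between FLI and control, leaving out 1 library gave 0 to 9 calls in morulae and 0 to 2 in blastocysts, edgeR gave 2 and DESeq2 4 in morulae, and leaving out the libraries apart gave 9 for the interaction of treatment with the last transition. Directions turned for FABP3 (0.46) and ACADM (0.57) in morulae with a replicate block that needs the shallow library, for FADS2 in blastocysts (0.37) with the shallow library, and for ACLY into the control morula (0.86) with the covariate. Of other called genes, ACADVL (-0.22), CPT2 (-0.54) and DGAT1 (-0.87) turned into the control morula and ELOVL1 (-0.59) and HADH (-0.72) into the control blastocyst with the shallow libraries, and DGAT1 with library size alone (-0.04), none of them called then; the causes were not tested. The replicate block gave 0 calls between FLI and control at each stage and 16 calls for the FLI change from morula to blastocyst. At the 4-6 cell stage the numbers set apart replicates 6 alone. Among replicates 7 to 9, samples of unlike number correlated at 0.463 to 0.734, and the FLI and control replicates 8 at 0.473. Centring on a mean that includes replicate 6 shifts these libraries alike, so these values do not show a shared deviation. Elsewhere same-numbered samples correlated at 0.0628 to 0.285 (9-16 cells), -0.45 (morula, 1 pair) and -0.736 to 0.355 (blastocyst). Depth limits FADS2 before the morula. Leaving out a library to 2 per group assumes the spread of the rest.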
